A study of Mus musculus with 6 samples.

Results

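Lipid-associated macrophages are macrophages that have taken up and stored lipid, as described in fat tissue, atherosclerotic plaques and tumours. The 10 genes examined here (Apoe, Lpl, Abca1, Abcg1, Fabp4, Fabp5, Plin2, Cd36, Trem2 and Gpnmb) are commonly used to describe that state, and they were taken by name from a table of 54532 genes. RNA sequencing had been performed on cells labelled as bone marrow-derived macrophages (BMDMs) after co-culture with ID8, a line of ovarian cancer cells from the mouse. The study's results also call them BMDMs, whereas its methods and a figure caption call them monocytes. Before co-culture the line was exposed to cisplatin at 40 µM for 3 of the libraries, or to PBS alone for the other 3. Cisplatin is a chemotherapy drug that forms DNA crosslinks. Both groups therefore contained ID8 co-culture, and neither held macrophages alone. The marrow cells came from C57BL/6 mice of 6 to 8 weeks, and no genetic change is named for either group. The study's methods speak of biological replicates, but neither they nor the labels say whether the 3 libraries of a group came from separate mice or cultures. The p-values therefore measure the spread between libraries, which may be technical.

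The genes cover successive steps of lipid handling. CD36, a scavenger receptor, and lipoprotein lipase (Lpl) bring fatty acids to the cell, the fatty acid binding proteins FABP4 and FABP5 carry them in the cytosol, and perilipin 2 (Plin2) coats the droplets in which neutral lipid is stored. ABCA1 and ABCG1 are transporters that move cholesterol out of the cell onto lipoproteins, and apolipoprotein E (Apoe) is an acceptor of that cholesterol. TREM2 is a lipid-sensing surface receptor that signals through the adaptor DAP12, encoded by Tyrobp, and GPNMB is a transmembrane glycoprotein of lysosome-rich macrophages. Liver X receptors (LXRs), which sense oxidised cholesterol, activate Abca1, Abcg1, Apoe and Lpl, and PPARγ, which senses fatty acids, activates Cd36, Fabp4 and Plin2.

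Start-site sequences are shown as a description, and no link between their letters and the changes was tested. Windows of 250 bases upstream of a RefSeq start site on GRCm38.p6 were matched for 6 of the 10 genes (Apoe, Abca1, Plin2, Cd36, Trem2 and Gpnmb). Lpl, Abcg1, Fabp4 and Fabp5 were not matched. Capitals mark the letters of any of 8 motifs searched on both strands.
Cd36 (chr5:17835897-17836146, minus strand): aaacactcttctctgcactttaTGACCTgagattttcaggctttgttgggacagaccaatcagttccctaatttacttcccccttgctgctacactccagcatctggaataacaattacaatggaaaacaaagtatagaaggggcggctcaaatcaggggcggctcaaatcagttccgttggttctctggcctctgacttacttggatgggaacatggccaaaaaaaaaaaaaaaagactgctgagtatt
Trem2 (chr17:48346151-48346400, plus strand): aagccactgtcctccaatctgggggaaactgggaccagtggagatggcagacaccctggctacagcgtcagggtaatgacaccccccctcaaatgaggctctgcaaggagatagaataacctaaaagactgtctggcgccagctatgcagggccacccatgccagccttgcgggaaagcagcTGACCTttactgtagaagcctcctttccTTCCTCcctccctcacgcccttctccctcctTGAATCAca
Plin2 (chr4:86670060-86670309, minus strand): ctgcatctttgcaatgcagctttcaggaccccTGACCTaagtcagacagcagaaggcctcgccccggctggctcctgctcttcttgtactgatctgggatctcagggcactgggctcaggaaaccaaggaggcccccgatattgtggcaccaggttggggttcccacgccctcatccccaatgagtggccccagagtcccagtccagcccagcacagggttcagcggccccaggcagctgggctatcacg
Abca1 (chr4:53159896-53160145, minus strand): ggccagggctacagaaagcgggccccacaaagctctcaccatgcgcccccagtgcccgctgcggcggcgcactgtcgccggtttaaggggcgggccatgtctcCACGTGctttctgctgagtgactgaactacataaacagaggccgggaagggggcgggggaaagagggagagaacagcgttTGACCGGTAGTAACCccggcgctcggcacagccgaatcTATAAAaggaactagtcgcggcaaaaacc

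The half-site bound by nuclear receptors, AGGTCA, was found in the windows of Cd36, Trem2 and Plin2, in each case on the opposite strand as TGACCT. Counted from the start site, it lay at -228 to -223 in Cd36, -218 to -213 in Plin2 and -68 to -63 in Trem2. The same letters occurred in 14% of 32851 RefSeq windows of equal length. Direct repeats of AGGTCA separated by 1 base (DR1, bound by PPAR heterodimers) and by 4 bases (DR4, bound by LXR heterodimers) matched none of the 8 windows of these genes, and 0.0335% and 0.0152% of all windows. A relaxed form of DR4, GGTNA repeated after 5 free bases, was added with the known LXR element of Abca1 in mind. It matched the Abca1 window as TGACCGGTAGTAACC, at -67 to -53, and 0.621% of all windows. Abca1 also held an E-box (CACGTG, in 6.02% of windows) and a TATA box (TATAAA, in 12.4%). Trem2 held a site for PU.1, the macrophage lineage factor (GAGGAA, in 23.3%), and an AP-1 site (TGANTCA, in 6.75%). The Gpnmb window held none of the 8 motifs, and the 3 windows of Apoe held only PU.1 and TATA box letters. The Cd36 start used by RefSeq lies 52905 bases inside the gene as the table draws it, so start sites further upstream were not searched. A match is a description of these letters and not of binding.

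Of the 10 genes, 9 were tested, having a value of at least 1 FPKM (a read count divided by gene length and library depth) in at least 3 libraries. Fabp4 did not pass this filter, and Trem2 passed it through the cisplatin libraries alone, so that it had to differ. Genes were called at a Benjamini-Hochberg adjusted p under 0.05 over all 13441 genes tested, in limma on log2(FPKM + 1), and a log2 fold change whose size was 1 or more. By this rule Cd36, Fabp5, Apoe, Gpnmb and Trem2 were upregulated with cisplatin, and none of the 9 was downregulated. Of all genes tested, 4.67% were called higher and 11.3% lower (15.9% in either direction). The other 4 tested genes also passed the adjusted p without reaching the fold threshold: Plin2, Abcg1 and Lpl were higher and Abca1 was lower, where 32.9% of all genes were higher and 35.1% lower by the adjusted p alone. The groups did not overlap for any of the 10 genes, as for 72.4% of all genes tested (35.2% higher and 37.2% lower). Log2 fold changes had a median of 1.09 over these 9 genes and of -0.0011 over all genes tested. As the 10 genes were chosen with results of these data known, these counts describe them and test nothing about the list.

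Depth was similar in all libraries, with 15776238 to 17924686 reads recovered from the FPKM values. RNA of both partners was present. All 10 macrophage markers were tested and 6 were called higher, where 4.67% of all genes were (median log2 fold change 1.25). Adgre1, Csf1r, Cd68 and Fcgr1 were not called. Of the 6, Mertk passed the filter through the cisplatin libraries alone and so had to differ. Among the others was Lyz2, which encodes lysozyme, at 3459 ± 80.4 FPKM with cisplatin and 1161 ± 10.8 FPKM with PBS (SD, n = 3 each). Of 19 ID8 and mesothelial markers 12 were tested and 8 were downregulated (median -1.89), where 11.3% of all genes were called lower. None was called higher, but Cdh1 was higher short of the fold threshold (log2 fold change 0.60, limma adjusted p = 0.00238). Msln, at -0.70, was not called. The summed level of the 19 lay between 250.04 and 271 FPKM with cisplatin and between 1317 and 1420 FPKM with PBS. Of the defining keratins of that list, Krt19 stood at 51.1 ± 3.80 against 588 ± 28.8 FPKM, and Krt7 was near 0 in both groups. Leukocyte reference genes (Ptprc, Laptm5, Coro1a, Cd53 and Arhgdib) were higher in all 5 cases (median log2 fold change 0.82). The 4 Y-linked genes, which ID8 cells, derived from a female mouse, should lack, were all higher (median 0.70). In bulk RNA, fewer cells of a type and less RNA per cell cannot be told apart. Markers of leukocytes and of ID8 cells moved with the groups, and neutrophil markers had a median of 1.25 as well. The share of macrophage RNA alone was not measured. The 9 tested genes are therefore also given after the libraries were scaled by the 5 leukocyte genes or by the 4 Y-linked genes, which moved the median log2 fold change of all genes tested from -0.0011 to -0.71 and -0.83.

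**Figure D1:**
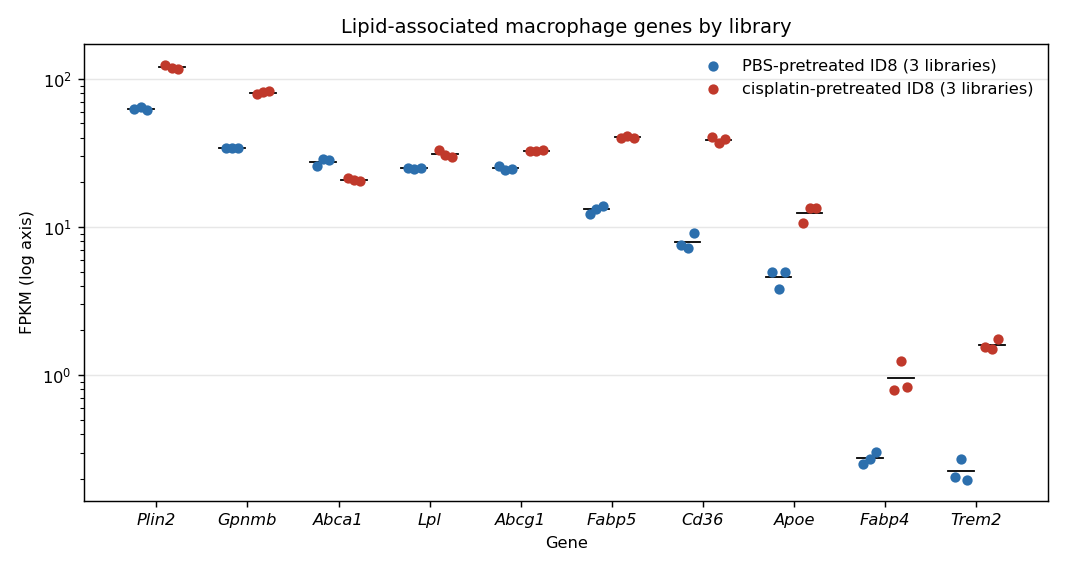
FPKM (vertical log axis) of the 10 genes in each library, with points for the 3 PBS (blue) and 3 cisplatin (red) libraries and a black line at the group mean. The groups are separate for every gene. Abca1 is the only one of the 10 that is lower with cisplatin (20.8 against 27.6 FPKM), and Trem2 and Fabp4 sit at the bottom of the scale in both groups.

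Of the uptake genes among the 10, Cd36 (ENSMUSG00000002944, GRCm38 chromosome 5, 17781690 to 17888801) had a larger change than Lpl. It was at 40.5, 36.9 and 39.0 FPKM in the cisplatin libraries and at 7.52, 7.26 and 9.09 FPKM in the PBS libraries. The lowest cisplatin library thus stood 4.06-fold above the highest PBS library. The mean was 38.8 ± 1.81 against 7.96 ± 0.99 FPKM (SD, n = 3 each), with a log2 fold change of 2.16 (SE 0.082, limma adjusted p = 1.04e-06). Only 37 of the 13441 genes tested had a larger positive change. On log2(FPKM + 1), a scale that understates Trem2, Cd36 alone among the 5 upregulated genes stayed past both thresholds when the libraries were scaled by the leukocyte genes (log2 fold change 1.36, limma adjusted p = 4.13e-06) and by the Y-linked genes (1.22, limma adjusted p = 3.14e-05).

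Lpl (ENSMUSG00000015568, chromosome 8, 68880491 to 68907448), which releases fatty acids from circulating triglyceride, was at 33.1, 30.6 and 29.7 FPKM with cisplatin. In the PBS libraries it was at 25.01, 24.8 and 25.04 FPKM. The groups did not overlap, but the change was small, with a log2 fold change of 0.31 (SE 0.047, limma adjusted p = 0.000985), short of the fold threshold. Its direction depended on the scaling, since it was -0.51 after scaling by the leukocyte genes and -0.66 after scaling by the Y-linked genes, each above the median of all genes under that scaling.

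The cytosolic carriers stood at very different levels. Fabp5 (ENSMUSG00000027533, chromosome 3, 10012548 to 10016607) was at 39.99, 41.35 and 39.98 FPKM with cisplatin and at 12.3, 13.2 and 13.9 FPKM with PBS. All cisplatin libraries were close together and at least 2.87-fold above any PBS library. Its log2 fold change was 1.55 (SE 0.050, limma adjusted p = 5.14e-07), which 140 genes exceeded. Relative to leukocyte genes it remained higher at 0.74 (limma adjusted p = 7.81e-06), below the fold threshold.

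Fabp4 (ENSMUSG00000062515, chromosome 3, 10204088 to 10208576), the adipocyte form, lies on the same chromosome. It was at 0.799, 1.25 and 0.836 FPKM with cisplatin and at 0.252, 0.272 and 0.302 FPKM with PBS. These values rested on 61, 92 and 62 reads against 20, 19 and 21 reads, the fewest of the 10 genes in the cisplatin libraries and close to those of Trem2 in the PBS libraries. Fabp4 failed the filter and had no test in the fit of the whole table. With the filter removed, its log2 fold change on log2(FPKM + 1) was 0.61 (limma adjusted p = 0.0111). On the recovered reads of genes with a mean of at least 10 reads, an alternative chosen after seeing the data, limma voom gave 1.84 (adjusted p = 2.15e-05).

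The ratio of Fabp4 to Fabp5 was nearly the same in the groups. It was 0.020, 0.030 and 0.021 in the cisplatin libraries and 0.020, 0.021 and 0.022 in the PBS libraries. The groups overlapped, and the difference of 0.16 on the log2 scale was smaller than the SD of 0.33 among the cisplatin libraries (exact permutation test, two-sided, p = 0.8). It was -0.029 without cisplatin replicate 2. A p that misses the threshold does not show that the ratio was equal. Of the adipocyte markers, none of 7 passed the filter, their summed level was between 0.310 and 0.558 FPKM with cisplatin and between 0.215 and 0.622 FPKM with PBS, and Lep was listed at 0 in every library.

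Plin2 (ENSMUSG00000028494, chromosome 4, 86648386 to 86670060) had the highest level of the 10 genes in every library. It was at 125, 119 and 116 FPKM with cisplatin and at 63.0, 64.7 and 61.4 FPKM with PBS. The cisplatin libraries were all at least 1.79-fold higher than any PBS library. The log2 fold change of 0.91 (SE 0.040, 95% interval 0.82 to 1.01, limma adjusted p = 1.90e-06) fell just short of the threshold. On the recovered reads, limma voom put it at 1.01, past the threshold. Scaled by the leukocyte genes or the Y-linked genes, Plin2 was near no change, at 0.076 and -0.072.

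Plin3, another perilipin that coats droplets and is found in most cells, differed the other way on the deposited scale. It was at 21.4, 21.96 and 22.7 FPKM with cisplatin and at 31.95, 30.2 and 30.6 FPKM with PBS (log2 fold change -0.47, limma adjusted p = 5.56e-05). The ratio of Plin2 to Plin3, which no scaling of libraries can alter, was 5.83, 5.42 and 5.10 in the cisplatin libraries and 1.97, 2.15 and 2.01 in the PBS libraries. Scaled by the leukocyte genes and the Y-linked genes, Plin3 was past the fold threshold at -1.29 and -1.43, where the median of all genes was -0.71 and -0.83. The opposite direction from Plin2 thus did not hold with the Y-linked genes, under which Plin2 was also below 0. The ratio was higher with cisplatin by 1.42 on the log2 scale (exact permutation test, two-sided, p = 0.1, adjusted p = 0.12 over 6 ratios). With 3 libraries against 3, 0.1 is the smallest p this test can give.

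The cholesterol transporters Abca1 and Abcg1 differed in opposite directions on the deposited scale, and both were lower after scaling by the leukocyte genes or the Y-linked genes. The median of all genes was then -0.71 and -0.83, with 4161 and 5181 of 13441 genes called lower. Abcg1 lay above that median and Abca1 below it under both scalings. Abca1 (ENSMUSG00000015243, chromosome 4, 53030787 to 53159895), which loads cholesterol onto lipid-poor apolipoprotein, was at 21.4, 20.7 and 20.3 FPKM with cisplatin and at 25.7, 28.6 and 28.5 FPKM with PBS. All cisplatin libraries were below all PBS libraries. The log2 fold change was -0.39 (SE 0.052, limma adjusted p = 0.000493). After scaling by the leukocyte genes or the Y-linked genes it passed the fold threshold, at -1.20 and -1.35.

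Abcg1 (ENSMUSG00000024030, chromosome 17, 31057698 to 31115777), which exports cholesterol to mature lipoprotein particles, was at 32.6, 32.6 and 32.9 FPKM with cisplatin and at 25.8, 24.3 and 24.8 FPKM with PBS. Here the cisplatin libraries were the higher ones. The log2 fold change was 0.38 (SE 0.036, limma adjusted p = 9.20e-05), and it turned to -0.44 and -0.59 after scaling by the leukocyte genes and the Y-linked genes. In the table's annotation Abcg1 overlaps Gm25447, a ribosomal RNA gene on the same strand. None of the other 9 genes overlapped another gene.

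The ratio of Abca1 to Abcg1 does not depend on scaling. It was 0.656, 0.634 and 0.618 in the cisplatin libraries and 0.997, 1.18 and 1.15 in the PBS libraries. The transporters were thus at about equal levels per length with PBS, while Abca1 was the lower one in each cisplatin library. The difference on the log2 scale was -0.80 (exact permutation test, two-sided, p = 0.1, the smallest possible, adjusted p = 0.12).

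Apoe (ENSMUSG00000002985, chromosome 7, 19696109 to 19699188) was low for a gene that is abundant in many tissue macrophages. It was at 10.6, 13.5 and 13.4 FPKM with cisplatin and at 4.94, 3.81 and 4.98 FPKM with PBS. Every cisplatin library was at least 2.13-fold above every PBS library, although the libraries of a group spread more widely than for Cd36 or Fabp5. Its mean level exceeded that of 67.2% of tested genes with cisplatin and of 36.2% with PBS. The log2 fold change was 1.28 (SE 0.12, limma adjusted p = 8.65e-05). It was 0.53 after scaling by the leukocyte genes and 0.40 after scaling by the Y-linked genes.

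Trem2 (ENSMUSG00000023992, chromosome 17, 48346401 to 48354147) was near the floor of detection with PBS. It was at 1.56, 1.49 and 1.76 FPKM with cisplatin and at 0.206, 0.273 and 0.196 FPKM with PBS, from 131, 121 and 144 reads against 18, 21 and 15 reads. The ratio of the mean FPKM values was 7.14, the largest of the 10 genes, and the groups lay 5.47-fold apart at their nearest libraries. The log2 fold change on log2(FPKM + 1) was 1.09 (SE 0.10, limma adjusted p = 7.85e-05), which understates the change of so low a gene. It was 2.40 with a pseudocount of 0.1, and limma voom on the recovered reads gave 2.90 (adjusted p = 4.38e-08). Scaling by the leukocyte genes and the Y-linked genes lost the call, at 0.75 and 0.70 on log2(FPKM + 1). Even with cisplatin, the level of Trem2 exceeded that of only 15.3% of tested genes.

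Gpnmb (ENSMUSG00000029816, chromosome 6, 49036546 to 49070929) was the second most abundant of the 10 genes in both groups. It was at 78.9, 81.3 and 82.5 FPKM with cisplatin and at 34.3, 33.9 and 34.0 FPKM with PBS. The spread within each group was narrow, and the cisplatin libraries stood at least 2.30-fold above the PBS libraries. The log2 fold change was 1.22 (SE 0.032, limma adjusted p = 2.19e-07). After scaling by the leukocyte genes and the Y-linked genes it was 0.39 and 0.24, both past the adjusted p and short of the fold threshold.

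Trem2 was compared with 2 genes that are often measured beside it. Tyrobp, whose product DAP12 carries the TREM2 signal, was at 258, 271 and 287 FPKM with cisplatin and at 120.2, 124 and 132 FPKM with PBS (log2 fold change 1.11, limma adjusted p = 3.31e-06). The log2 ratio of Trem2 to Tyrobp was -7.41 ± 0.087 with cisplatin and -9.14 ± 0.29 with PBS, and that of Trem2 to Gpnmb was -5.66 ± 0.11 and -7.26 ± 0.26 (SD, n = 3 each). Both ratios were higher in all cisplatin libraries, by 1.73 and 1.60 on the log2 scale (exact permutation test, two-sided, p = 0.1 each, the smallest possible). With 1 added to each FPKM, these differences were -0.023 and -0.13, since that addition is several times the PBS level of Trem2.

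**Figure D2:**
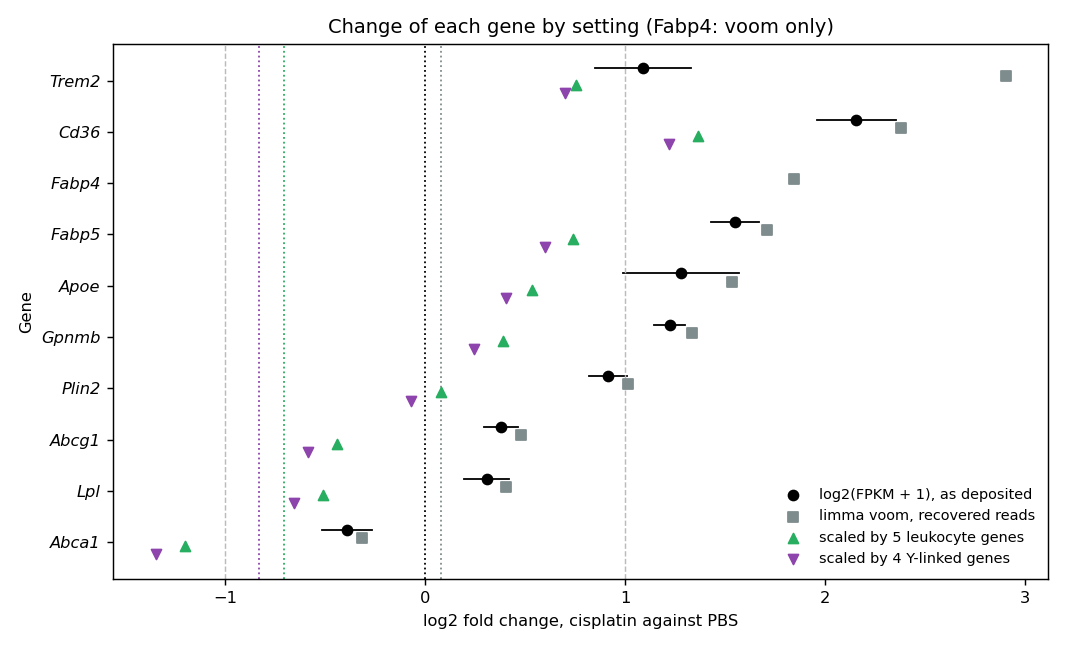
Log2 fold change, cisplatin against PBS, of 9 genes under 4 settings, and of Fabp4 by voom alone: log2(FPKM + 1) as deposited (black, with 95% intervals), limma voom on recovered reads (grey, for Fabp4 with the lower read filter), and scaling by 5 leukocyte genes (green) or 4 Y-linked genes (purple). Dashed lines mark the fold threshold and dotted lines the median of all genes under each setting. Cd36 is past the threshold under all 4, Lpl and Abcg1 fall below 0 with both scalings and Plin2 with the Y-linked genes, and Abca1 is below 0 throughout.

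The order of levels per gene length also differed between the groups. With PBS, Plin2 and Gpnmb were followed by Abca1, Lpl, Abcg1, Fabp5, Cd36, Apoe, Fabp4 and Trem2. With cisplatin they were followed by Fabp5, Cd36, Abcg1, Lpl, Abca1, Apoe, Trem2 and Fabp4. Neighbours whose libraries overlapped were Lpl with Abcg1 and Fabp4 with Trem2 in the PBS group, and Fabp5 with Cd36 and Abcg1 with Lpl in the cisplatin group. Thus Fabp5 and Cd36 passed Abca1, Lpl and Abcg1. Levels rest on the length of the whole gene model, for example 10478 bases for Lpl and 2138 bases for Apoe.

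**Figure D3:**
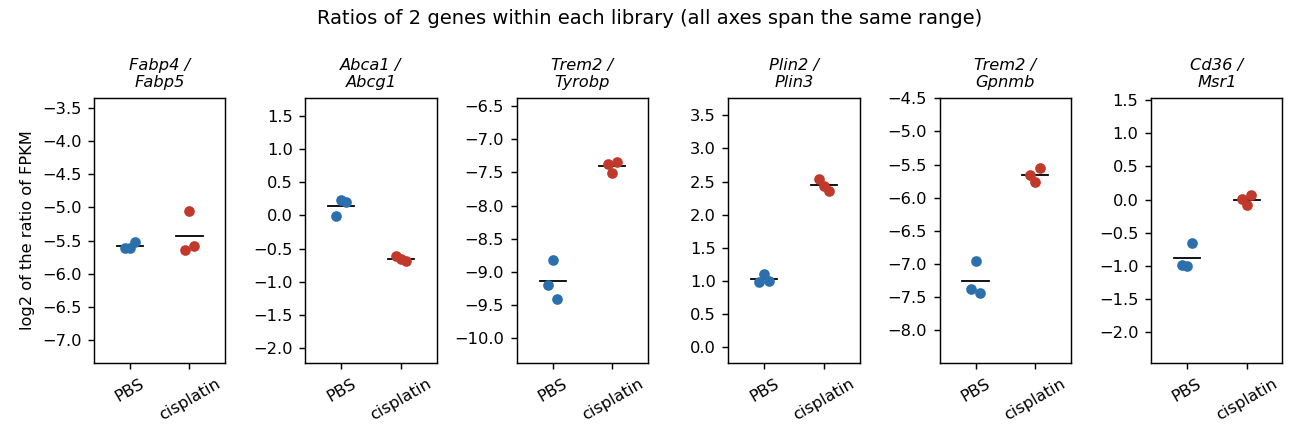
Log2 ratio of FPKM between 2 genes within each library for 6 pairs, with PBS libraries in blue, cisplatin libraries in red and black lines at the group means (n = 3 each). The groups separate for 5 pairs and overlap for Fabp4 to Fabp5. Abca1 to Abcg1 is the only separated pair that is lower with cisplatin.

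Genes around the 10 were examined through 6 further lists. Their counts on the deposited scale are to be read against the 4.67% of all tested genes that were called higher and the 11.3% called lower. Of 17 tested genes of LXR and cholesterol handling, none was upregulated and 1 was downregulated, Tspo, which encodes a cholesterol-binding protein of the outer mitochondrial membrane (94.1 ± 6.998 against 228 ± 18.2 FPKM, SD, n = 3 each, log2 fold change -1.27, limma adjusted p = 8.42e-06). The median of the list was -0.060, and 2 genes were downregulated without cisplatin replicate 2 or without PBS replicate 3. The LXR genes themselves were short of the fold threshold on the deposited scale. Nr1h3, which encodes LXRα, was at 2.96 ± 0.16 FPKM with cisplatin and 1.88 ± 0.043 with PBS (log2 fold change 0.46, limma adjusted p = 0.000876), and Nr1h2, which encodes LXRβ, was at 29.9 ± 0.95 and 36.4 ± 1.93 FPKM (-0.27, limma adjusted p = 0.00219; SD, n = 3 each). The sign for Nr1h3 turned to -0.14 and -0.24 after scaling by the leukocyte and the Y-linked genes, while Nr1h2 passed both thresholds, at -1.10 (limma adjusted p = 5.77e-07) and -1.24 (limma adjusted p = 3.96e-06). These scalings put the median of all genes at -0.71 and -0.83, with 4161 and 5181 of 13441 genes called lower. The remaining 14 tested genes of the list were not called, and Apoc1, Apoc2 and Apoc4, the neighbours of Apoe on chromosome 7, and Ch25h did not pass the filter.

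Of 15 tested genes of PPAR signalling and fatty acid oxidation, 5 were downregulated and none upregulated (median log2 fold change -0.49), where 11.3% of all genes were called lower. The other 10 were not called, with 4 above 0, among them Ucp2 at 0.48 (limma adjusted p = 1.63e-05). Pdk4, which restrains glucose oxidation, fell by 1.62 on the log2 scale (13.2 ± 0.45 to 3.65 ± 0.52 FPKM, SD, n = 3 each, limma adjusted p = 4.57e-06). Angptl4, an inhibitor of lipoprotein lipase, fell by 1.56 (21.02 ± 1.57 to 6.45 ± 0.54 FPKM, SD, n = 3 each, limma adjusted p = 3.15e-06). Cpt2 and Acadl, which act in fatty acid oxidation in mitochondria, were also downregulated (log2 fold changes -1.04 and -1.29, limma adjusted p = 1.09e-05 and 3.85e-07). Without cisplatin replicate 2, 4 genes of the list were downregulated. Pparg itself was low in both groups, at 1.13, 1.07 and 1.60 FPKM with cisplatin and 1.36, 1.02 and 0.786 with PBS, with groups that overlapped (log2 fold change 0.14, limma adjusted p = 0.408).

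Of 11 tested droplet and lipolysis genes, 1 was upregulated and 1 downregulated (4.67% and 11.3% of all genes). G0s2, an inhibitor of the lipase ATGL, rose to 41.2 ± 3.59 from 6.70 ± 0.52 FPKM (SD over 3 libraries, log2 fold change 2.45, limma adjusted p = 4.64e-07). Hilpda, which also inhibits ATGL and is induced by hypoxia, fell to 11.3 ± 0.23 from 54.6 ± 1.70 FPKM (SD over 3 libraries, log2 fold change -2.17, limma adjusted p = 7.14e-08). The other 9 tested genes of this list were not called, and the median was 0.049.

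Of 14 tested genes of lipid uptake, 2 rose and 2 fell (4.67% and 11.3% of all genes), with a median of -0.64. The scavenger receptors Marco and Msr1 were the upregulated genes. Marco was at 75.6, 88.5 and 88.6 FPKM with cisplatin and at 17.1, 12.6 and 16.8 FPKM with PBS (log2 fold change 2.38, limma adjusted p = 4.05e-06). Msr1 was at 38.8 ± 1.45 against 14.6 ± 0.27 FPKM (SD, n = 3 each, log2 fold change 1.35, limma adjusted p = 3.85e-07). Scaling by the leukocyte genes and the Y-linked genes left Marco called, at 1.56 and 1.41, and ended the call of Msr1, at 0.54 and 0.40. The ratio of Cd36 to Msr1 was 1.009, 0.945 and 1.05 in the cisplatin libraries and 0.507, 0.501 and 0.635 in the PBS libraries. Cd36 thus stood level with Msr1 with cisplatin and below it with PBS, a difference of 0.88 on the log2 scale (exact permutation test, two-sided, p = 0.1, the smallest possible). Acsl4, an enzyme that activates polyunsaturated fatty acids, fell by 1.20 (limma adjusted p = 1.18e-06). The lipoprotein receptor gene Lrp1 was called with a log2 fold change of -1.002 (limma adjusted p = 1.55e-05), close to the threshold. It was -0.94 without cisplatin replicate 1, -0.996 without PBS replicate 2 and -0.97 without PBS replicate 3, which lost the call. Median-of-ratios scaling (-0.99), quantile normalisation (-0.94) and limma voom (-0.93) lost it too, and scaling by the leukocyte genes and the Y-linked genes gave -1.84 and -1.98.

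All 12 genes of TREM2 signalling and shedding were tested, with 3 upregulated, where 4.67% of all genes were called higher, none downregulated and a median of 0.54. Beside Tyrobp these were Plcg2, a phospholipase downstream of TREM2 (78.2 ± 4.37 against 36.7 ± 0.62 FPKM, SD, n = 3 each, log2 fold change 1.07, limma adjusted p = 2.02e-06), and Treml2 of the Trem gene cluster. Adam10, one of the proteases that shed TREM2 from the surface, was lower with a log2 fold change of -0.86 (limma adjusted p = 2.28e-06). Adam17, the other protease, stood at -0.075 (limma adjusted p = 0.0862). The list had no gene called higher after scaling by the leukocyte genes or the Y-linked genes, which left 111 and 85 of all 13441 tested genes called higher. Tyrobp was then at 0.27 and 0.12 and Plcg2 at 0.24 and 0.091.

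The last list held 15 other genes used to mark lipid-associated macrophages, all tested, with a median of 0.29. Ctsd, which encodes the lysosomal protease cathepsin D, rose to 589 ± 4.08 from 245 ± 3.98 FPKM (SD over 3 libraries, log2 fold change 1.26, limma adjusted p = 1.41e-07). Cstb, which encodes an inhibitor of cathepsins, rose from 294 ± 18.3 to 599.8 ± 14.9 FPKM (SD, n = 3 each, 1.03, limma adjusted p = 3.70e-06), but was short of the threshold without PBS replicate 2 (0.98). Scaling by the leukocyte genes and the Y-linked genes ended both calls, at 0.41 and 0.26 for Ctsd and 0.18 and 0.033 for Cstb, the latter with a limma adjusted p of 0.744. Spp1, which encodes osteopontin, fell from 1050 ± 53.9 to 420 ± 20.1 FPKM (SD, n = 3 each, -1.32, limma adjusted p = 1.27e-06). The other 12 were not called, Cd9 and Lgals3 among them at -0.34 and 0.76. The sources do not say whether ID8 cells were removed before RNA extraction. The part of macrophages and of ID8 cells in the change of Spp1 was not tested.

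**Figure D4:**
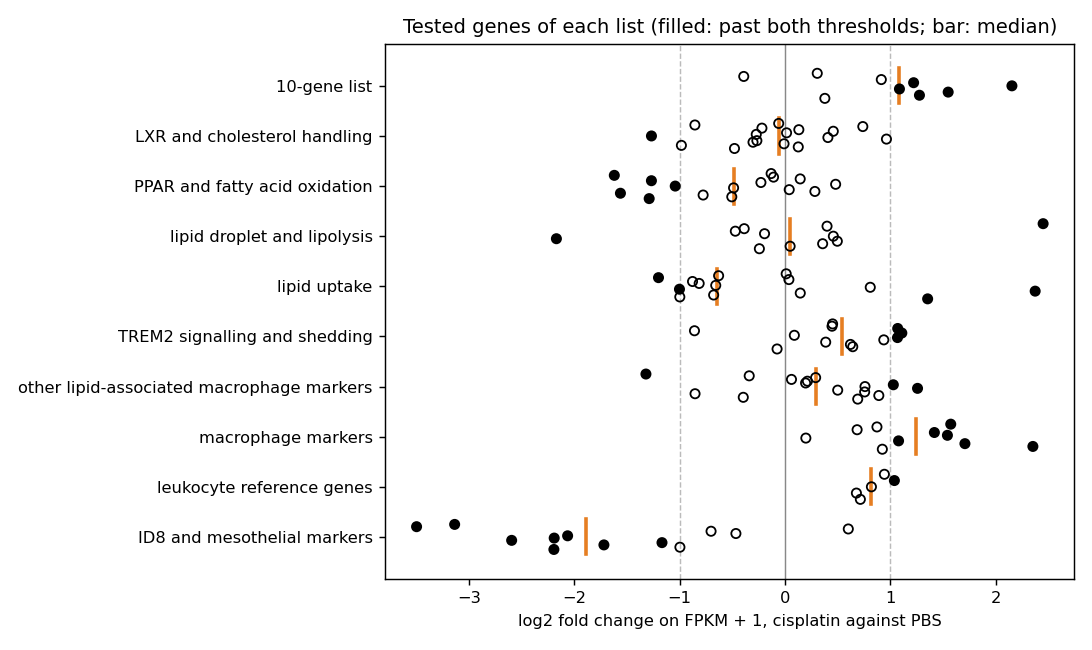
Log2 fold change on FPKM + 1, cisplatin against PBS, of each tested gene (points, filled where past both thresholds) of the 10 genes, the 6 further lists and 3 marker lists, with orange bars at the list medians. The medians run from -1.89 for ID8 and mesothelial markers to 1.25 for macrophage markers, and that of the 10-gene list (1.09 over 9 tested genes) lies between those of the leukocyte genes (0.82) and the macrophage markers.

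Other cells that express some of the 10 genes were checked by their markers. Of 7 endothelial markers 3 were tested and none was called, with a summed level between 19.8 and 21.2 FPKM with cisplatin and between 13.9 and 14.7 FPKM with PBS, and Cdh5 was below 0.4 FPKM in every library. Of 6 dendritic cell markers 3 were tested. Ccr7 was upregulated (log2 fold change 1.004), and Flt3 (1.02) and Zbtb46 (-0.69) stood on opposite sides, each having passed the filter through its higher group alone. Xcr1 was near 0 in both groups. All 8 neutrophil markers were tested and 4 were upregulated, where 4.67% of all genes were called higher (median log2 fold change 1.25). These were Mpo (2.63), Elane (1.86), Camp (1.76) and Ltf (1.63). The summed level of all 8, mostly S100a8 and S100a9, lay between 8177 and 8443 FPKM with cisplatin and between 4594 and 4750 FPKM with PBS. The part of the cells behind these lists in the changes of the 10 genes was not tested.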

How the data were processed

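The 6 libraries were grouped by the treatment label and numbered as in their titles. The authors deposited FPKM per gene and library. Per the labels' processing notes, fastp, HISAT2 2.0.5 and featureCounts 1.5.0-p3 were used on mm10, whereas the study's methods name LifeScope. The strand setting is not given in the sources used here. Gene coordinates equalled those of GENCODE M21 (GRCm38) for 98.3% of the identifiers found there and for 9 of the 10 genes (not Abcg1).

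Values were transformed to log2(FPKM + 1), and genes with at least 1 FPKM in at least 3 libraries were fitted in limma 3.58.1 under R 4.3.3 with group as the only term (eBayes with a trend). On this scale, changes of low genes are understated. Calls needed both a log2 fold change of 1 or more in size and an adjusted p below 0.05, the thresholds of the study's methods, which applied them to another test, on counts. Reads were recovered from FPKM and gene length, and 100% of values worth up to 200 reads were whole within 0.1 read. Ratios were tested by exact permutation over libraries. The procedure was tested on simulated data.

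The 10 genes and all lists were chosen with earlier results of these data known. Named genes were the 10, Nr1h3, Nr1h2, Pparg, Tyrobp, Msr1 and Plin3, and up to 2 called genes per direction with the largest change in each of the 6 lists. Further names (Cpt2, Acadl, Treml2, Adam10, Adam17, Ucp2, Cd9, Lgals3, genes that did not pass the filter and marker genes) were chosen after their values were seen.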

Additional observations from a re-analysis of the deposited data

How the results depend on the processing

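Against 5 genes called higher and 0 called lower, scaling by the Y-linked genes gave 1 and 1 (Cd36 and Abca1), as did scaling by the leukocyte genes. Of all 13441 tested genes, 85 were then called higher and 5181 lower with the Y-linked genes, and 111 and 4161 with the leukocyte genes. The adjusted p alone gave 8 and 1, and limma's treat test at the fold threshold gave 3 and 0 (Cd36, Fabp5 and Gpnmb higher). A filter at 5 FPKM gave 4 and 0, limma voom on recovered reads 6 and 0, and voom on genes of at least 10 reads on average 7 and 0. Leaving out each library in turn gave 5 and 0 throughout. Their median log2 fold change over 9 tested genes, 1.09, was 1.24 with a pseudocount of 0.1, 1.23 with TPM rescaling and 1.22 with quantile normalisation. It was 0.24 and 0.39 with Y-linked and leukocyte scaling and 1.33 with limma voom on recovered reads. It ranged from 1.04 to 1.12 across fits that each left out a library. Over 10 genes, with Fabp4 included, the median was 1.001 with no filter and 1.43 with voom on genes of at least 10 reads on average. That voom fit was the one alternative chosen after seeing the data. Y-linked scaling reversed Lpl (-0.66), Abcg1 (-0.59), Plin2 (-0.072), Nr1h3 (-0.24) and Pparg (-0.38), and leukocyte scaling reversed Lpl (-0.51), Abcg1 (-0.44), Nr1h3 (-0.14) and Pparg (-0.31), all above the shift of all genes under it. With 1 added to each FPKM, the log2 differences of the Fabp4 to Fabp5 (-0.94), Trem2 to Tyrobp (-0.023) and Trem2 to Gpnmb (-0.13) ratios turned negative. Without cisplatin replicate 2 that of Fabp4 to Fabp5 was -0.029, and it ranged from -0.029 to 0.27 across fits without a library.

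Over all genes, upregulated genes made up 29.3% of the calls, against 1.61% with Y-linked, 2.60% with leukocyte scaling, 39.3% with quantile normalisation and 39.7% with voom. Same-numbered libraries did not deviate together (correlations of -0.10, -0.086 and -0.024), and a fit with a block for replicate number again gave 5 and 0. After leukocyte scaling, genes called higher and lower numbered 0 and 7 for LXR and cholesterol handling, 0 and 8 for PPAR and fatty acid oxidation, 1 and 4 for droplets, 1 and 8 for uptake, 0 and 1 for TREM2 signalling and 0 and 4 for the other markers. Against 628 higher and 1514 lower over all genes, a count moved by over 1.5 times with a pseudocount of 0.1 (973 and 1981), voom (1227 and 1861), voom at 10 reads (1656 and 2399), the adjusted p alone (4424 and 4721), Y-linked scaling (85 and 5181) and leukocyte scaling (111 and 4161). Of the 10 genes, Trem2 and Fabp4 rested on the fewest reads.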

Other observations

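Relatives of the 10 genes that did not pass the filter were at low levels. Fabp3, a fatty acid binding protein of heart and muscle, was at 0.786, 0.592 and 1.03 FPKM with cisplatin and at 0, 0.0780 and 0.157 FPKM with PBS. Plin4 was at 0.132, 0.158 and 0.157 against 0.0293, 0.0556 and 0.0447 FPKM. Apoc1 was at 0.553, 0.246 and 0.163 FPKM with cisplatin, and with PBS it was listed at 0 in replicates 1 and 3 and at 0.0863 FPKM in replicate 2. These 3 were higher in every cisplatin library than in any PBS library, on few reads, and were not tested. They were chosen after their values were seen. Plin1, Plin5, Apoc2 and Apoc4 also failed the filter, and their groups overlapped, with mean levels of 0.00868 against 0.0138 FPKM for Plin1, 0.0969 against 0.0488 for Plin5, 0.0248 against 0.0526 for Apoc2 and 0.0320 against 0 for Apoc4.

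Genes of cholesterol release from lysosomes differed among themselves. Npc1 was at 29.9 ± 0.28 FPKM with cisplatin and 14.9 ± 0.30 with PBS (log2 fold change 0.96, limma adjusted p = 8.55e-07), whereas Npc2, whose product hands cholesterol to NPC1, was at 54.4 ± 0.86 and 99.4 ± 3.50 FPKM (-0.86, limma adjusted p = 1.85e-06; SD, n = 3 each). Both were short of the fold threshold, and both were chosen after their values were seen.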
